A study of Mus musculus with 20 samples.

Results

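Imprinted genes are transcribed mainly from the chromosome of 1 parent, and 7 such genes were followed here in T cells after loss of *Dnmt3a*. The members, chosen by symbol, were *Impact*, *Igf2r*, *Snrpn*, *Zrsr1*, *H13*, *Cdkn1c* and *Plagl1*. Of the 17101 genes in the deposited table, 6 were members, and *Snrpn* was not analysed here.

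Parental imprints are DNA methylation marks that are laid down in the germ line by DNMT3A with its cofactor DNMT3L. After fertilization they are copied at each cell division by DNMT1 and UHRF1, while ZFP57 and ZFP445 recruit TRIM28 and SETDB1 to the methylated allele. The Cre recombinase in these donors was driven by the *Cd4* promoter, so *Dnmt3a* was lost in thymocytes, long after imprints are set. The comparison of KO with WT cells therefore addressed whether transcript levels of imprinted genes changed when *Dnmt3a* was lost late.

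RNA-Seq was performed on T cells sorted from the spleens of irradiated F1 recipients (8 to 12 weeks old) on day 10 after transplantation from B6 donors (6 to 12 weeks old by the labels, from which the methods differ at the lower end). KO donors carried floxed *Dnmt3a* alleles with CD4-Cre, and WT donors were their littermates. KO animals 1 to 4 each gave a CD4+, a CD8+ and a CD4+CD8+ double-positive (DP) library, and WT animals 2, 3, 5 and 6 each gave a CD4+ and a CD8+ library, which makes 20 libraries in 5 groups of 4. DP cells of WT animals were not analysed here. All groups had been transplanted and the donors were inbred, so the deposited counts gave the sum of both parental alleles and could not show which allele was transcribed.

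Between 37547651 and 46966318 reads fell on genes per library. Fewer genes had reads in every KO library (at most 14198) than in any WT library (at least 14421) at overlapping depth, and the part of this in the KO and WT differences was not tested. The DP library of KO animal 3 stood apart with 11783 such genes, against at least 13203 elsewhere. The DP differences of *Plagl1* from both other KO subsets and of *Igf2r* from KO CD4+ cells are given with and without this library. *Dnmt3a* itself was at 3542 to 5171 normalized counts in the WT libraries and at 650.4 to 2007 in the KO libraries, which matched every genotype label. The summed T cell markers lay between 106012 and 210960 in all groups. *Cd4* and *Cd8a* with *Cd8b1* followed the labelled subsets, although the KO CD4+ library of animal 1 held a summed CD8 level of 8287, beside a median of 857 in its group and at least 84823 in the KO CD8+ libraries. Summed markers of other cells differed between genotypes. The sum of 6 B cell markers was 646 to 1126 in KO and 55.7 to 89.0 in WT CD4+ cells, and 1428 to 2282 in KO and 169.6 to 263 in WT CD8+ cells, mostly from *Cd79b*, while *Ms4a1* and *Pax5* were at 0 in all KO CD8+ libraries. The 6 neutrophil markers summed to 5.89 to 3309 in KO and 1751 to 2756 in WT CD4+ cells, and to 6.18 to 2048 in KO and 1460.3 to 3397 in WT CD8+ cells. The 6 pancreatic acinar markers reached 7492 in KO CD8+ and 7076 in KO CD4+ cells against at most 1865 and 2460.1 in the WT cells. The ranges of the neutrophil and acinar sums overlapped between genotypes in both subsets. The 6 stromal and endothelial markers summed to 5786 to 8629.5 in KO and 3775 to 5128 in WT CD4+ cells, and to 2905 to 4947 in KO and 2403 to 2633 in WT CD8+ cells, mostly from *Pecam1* and without overlap. The other markers of this list overlapped between genotypes in both subsets. Among them, *Col1a1* was at 12.8 to 63.7 in KO and 27.5 to 91.3 in WT CD4+ cells. *Col3a1* was at 0 in 3 KO CD4+ libraries and at 10.1 to 19.4 in WT CD4+ cells. The part of these transcripts in the differences below was not tested. Within a bulk library, fewer cells of a type and less RNA per cell cannot be told apart.

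The members lie at separate loci, most of which hold a second imprinted or overlapping transcript. On GRCm38.p6, the paternally expressed *Impact* lies on chromosome 18, *Plagl1* at chr10:13090832-13131694 (plus strand) and *Zrsr1* at chr11:22972005-22976496 (plus strand). The genes expressed from the maternal allele are *Igf2r* at chr17:12682406-12769706 (minus strand), *Cdkn1c* at chr7:143458339-143461059 (minus strand) and, for its full-length form, *H13* at chr2:152669422-152708668 (plus strand). *Mcts2*, a paternally expressed retrogene at chr2:152687148-152687946, lies inside an intron of *H13* on the same strand and shares 0 exon bases with it in the curated RefSeq models. *Airn*, a noncoding RNA that silences *Igf2r* on the paternal chromosome in many tissues, starts inside *Igf2r* and runs on the opposite strand, with 0 exon bases shared. *Zrsr1* lies within *Commd1* on the opposite strand, with 216 exon bases in common. The noncoding RNA *Kcnq1ot1* is transcribed from the same imprinted domain as *Cdkn1c* and does not overlap it, and *Plagl1* shares 218 exon bases with the noncoding *Hymai* on its own strand.

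**Figure D1:**
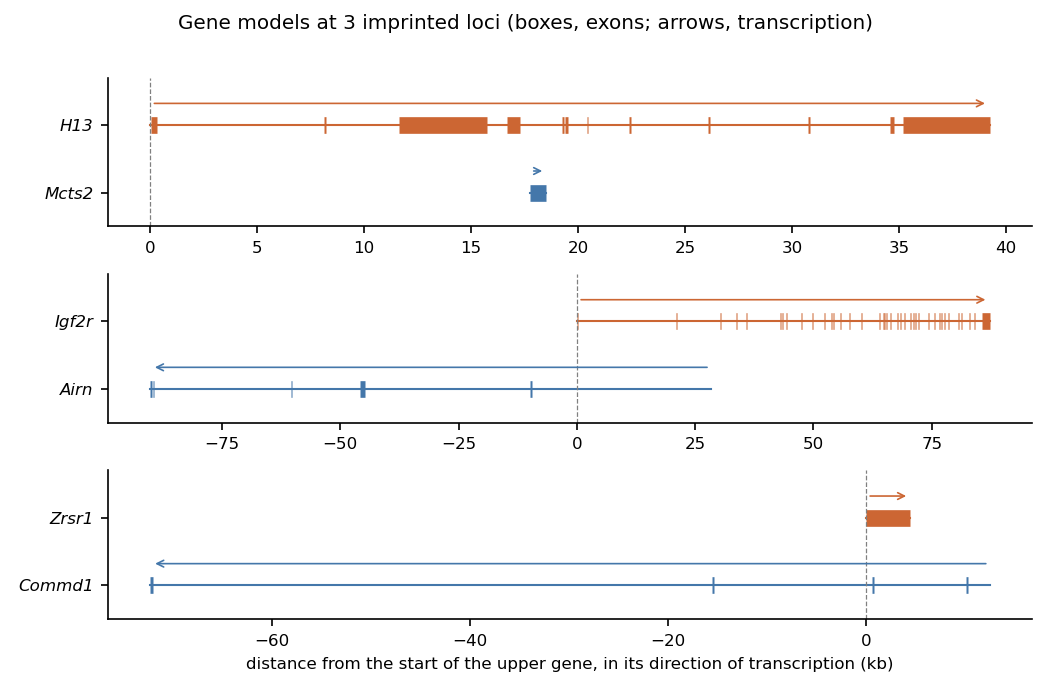
Gene models at 3 imprinted loci, with the distance from the start of the upper gene in kb on the x axis, boxes for exons and arrows for the direction of transcription. *Mcts2* sits between exons of *H13* in the same direction, *Airn* starts within *Igf2r* and runs the other way, and *Zrsr1* lies within *Commd1* on the other strand.

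The start regions of *Plagl1*, *Zrsr1* and *Mcts2* are shown because the 3 germline marks there cover the start of the gene, and imprints often sit in CpG-dense sequence. The starts of *Igf2r* and *H13* are shown beside them and are not taken as germline marks. Each window runs from 250 bases before to 50 bases after the start given by RefSeq on GRCm38.p6, and is printed in the direction of transcription. Capitals mark the hexamer TGCCGC or its reverse complement GCGGCA, the core of the motif that ZFP57 binds when it is methylated, searched on both strands. Windows for *Impact*, *Cdkn1c*, *Airn*, *Kcnq1ot1* and *Commd1* are not shown.
*Igf2r*, chr17:12769657-12769956, minus strand, 0 hexamers:
Igf2r: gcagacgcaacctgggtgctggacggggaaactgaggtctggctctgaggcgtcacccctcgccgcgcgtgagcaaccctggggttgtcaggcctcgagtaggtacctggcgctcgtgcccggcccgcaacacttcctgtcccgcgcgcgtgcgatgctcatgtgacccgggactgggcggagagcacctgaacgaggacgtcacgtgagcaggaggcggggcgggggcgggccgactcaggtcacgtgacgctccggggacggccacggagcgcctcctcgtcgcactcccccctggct
*H13*, chr2:152669211-152669510, plus strand, 0 hexamers:
H13: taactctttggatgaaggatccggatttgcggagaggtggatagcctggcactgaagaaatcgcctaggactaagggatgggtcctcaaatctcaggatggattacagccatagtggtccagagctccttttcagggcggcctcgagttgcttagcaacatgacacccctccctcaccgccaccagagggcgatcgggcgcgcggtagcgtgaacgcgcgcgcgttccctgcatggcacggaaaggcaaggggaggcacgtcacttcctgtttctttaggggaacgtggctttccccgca
*Mcts2*, chr2:152686898-152687197, plus strand, 1 hexamer in the direction of transcription:
Mcts2: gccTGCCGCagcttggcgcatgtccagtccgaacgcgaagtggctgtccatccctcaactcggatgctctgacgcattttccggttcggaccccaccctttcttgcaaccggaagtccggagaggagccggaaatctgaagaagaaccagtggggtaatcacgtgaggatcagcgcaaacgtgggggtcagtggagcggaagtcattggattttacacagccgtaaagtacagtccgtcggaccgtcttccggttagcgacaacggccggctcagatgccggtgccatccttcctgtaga
*Plagl1*, chr10:13090582-13090881, plus strand, 1 hexamer on the reverse strand:
Plagl1: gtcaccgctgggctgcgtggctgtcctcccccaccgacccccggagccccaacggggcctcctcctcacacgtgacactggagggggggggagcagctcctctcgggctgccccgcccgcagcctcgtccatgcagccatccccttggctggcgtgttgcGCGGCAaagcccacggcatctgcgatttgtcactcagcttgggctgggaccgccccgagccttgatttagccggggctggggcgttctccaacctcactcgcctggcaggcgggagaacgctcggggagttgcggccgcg
*Zrsr1*, chr11:22971755-22972054, plus strand, 0 hexamers:
Zrsr1: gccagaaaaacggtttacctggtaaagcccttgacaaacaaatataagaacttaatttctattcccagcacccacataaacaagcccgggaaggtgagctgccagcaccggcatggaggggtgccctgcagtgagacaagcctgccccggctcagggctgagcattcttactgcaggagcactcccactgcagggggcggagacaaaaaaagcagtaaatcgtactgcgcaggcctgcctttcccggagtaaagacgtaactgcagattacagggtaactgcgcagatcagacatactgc

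Over all 32851 windows of the same length, 11.6% held the hexamer and 1.53% held it at least 2 times, and the median number of CpG dinucleotides was 7 (quartiles 3 and 20). *Igf2r* had 34 CpGs, more than 92.3% of all windows. *Plagl1* had 26 (more than 83.1% of windows), *Mcts2* 25 (81.6%) and *H13* 21 (75.2%), so all 4 were above the upper quartile. *Zrsr1* had 10 CpGs, more than 56.5% of windows. Of the partner transcripts whose windows are not shown, *Airn* had 3 CpGs (more than 23.3% of windows), *Kcnq1ot1* 9 (54.2%) and the 2 starts of *Commd1* 18 and 17 (70.3% and 68.6%), and 1 hexamer was found, at the start of *Commd1* with 18 CpGs. Outside these windows, no search was made, and the methylation of the windows was not measured here.

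Expression levels of the members spanned a wide range. Compared per kb of exon, so that genes of different length can be set side by side, the normalized count in WT CD8+ cells was 1823 per kb for *Igf2r*, which exceeded 84.9% of expressed genes, and 875 per kb for *H13* (70.3%). *Impact*, at 239.7 per kb, exceeded 40.6% of expressed genes and *Zrsr1*, at 91.4 per kb, exceeded 26.8%. *Cdkn1c* (12.4 per kb, 9.58%) and *Plagl1* (5.55 per kb, 3.84%) were near the lower end. In WT CD4+ cells the level per kb was 1104 for *Igf2r*, 913 for *H13*, 249 for *Impact*, 110.1 for *Zrsr1*, 38.8 for *Plagl1* and 22.8 for *Cdkn1c*. The order of the members was the same in both WT subsets except for *Plagl1* and *Cdkn1c*, which traded places.

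The spread between animals set what could be seen. Among the 4 WT CD8+ libraries the coefficient of variation was 1.2% for *H13*, 4.38% for *Impact*, 7.59% for *Igf2r* and 12.6% for *Zrsr1*, against 33.9% for *Plagl1* and 40.4% for *Cdkn1c*. It was wider in KO CD8+ cells for each member, at 4.93% for *H13*, 23.3% for *Impact*, 22.5% for *Igf2r*, 20.5% for *Zrsr1*, 108% for *Plagl1* and 52.0% for *Cdkn1c*. In CD4+ cells it was narrower in KO than in WT libraries for *Cdkn1c* (23.9% against 56.7%) and *Impact* (8.08% against 8.61%). The other members had a wider spread in KO CD4+ cells.

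**Figure D2:**
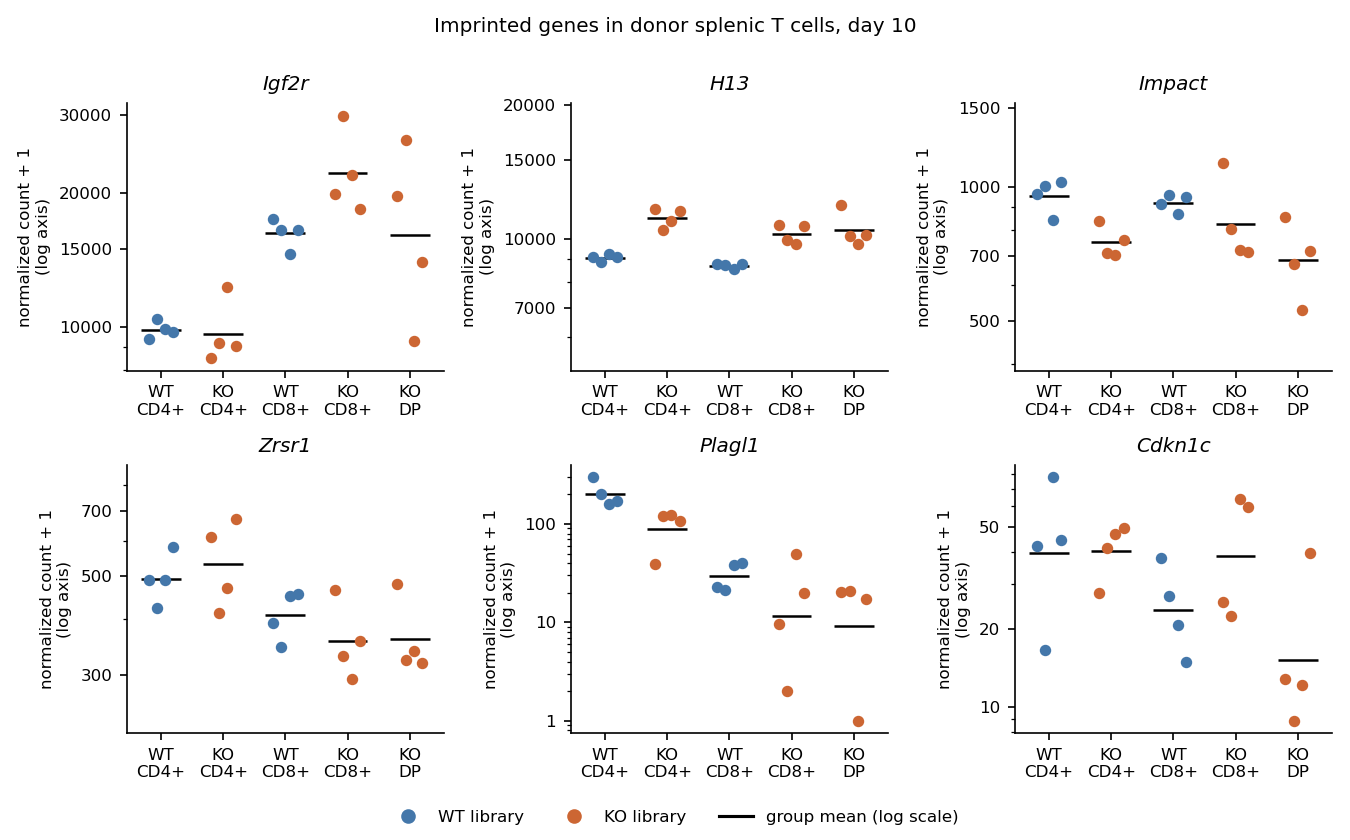
Normalized count plus 1 (log axis) of the 6 members in each library, with blue points for WT, orange points for KO and black bars for the mean of each group of 4 on the log scale. All KO points of *H13* lie above all WT points of the same subset, *Igf2r* separates CD4+ from CD8+ WT cells, and *Plagl1* falls from WT CD4+ cells (158 to 299) to 1 DP library with a count of 0.

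*H13* was the member that rose in KO cells of both subsets. It encodes signal peptide peptidase, the intramembrane protease that cuts leftover signal peptides in the endoplasmic reticulum. In CD4+ cells its normalized counts were 11643, 10429, 10958 and 11534 in KO animals 1 to 4 and 9098, 8842, 9219 and 9113 in WT animals 2, 3, 5 and 6. In CD8+ cells they were 10728, 9947, 9737 and 10682 in KO and 8772, 8716, 8542 and 8749 in WT animals. Every KO library lay above every WT library in both subsets, and the WT libraries lay close together. The difference, on log2(normalized count + 1), was 0.30 (SE 0.064, 95% CI 0.15 to 0.44, adjusted p = 0.0153, limma with Benjamini-Hochberg adjustment over 12391 genes) in CD4+ cells, a rise of 22.8%. It was 0.24 (SE 0.058, 95% CI 0.11 to 0.37, adjusted p = 0.0171 over 12383 genes) in CD8+ cells, a rise of 18.1%. The count covered all exons of the gene, so the rise could not be assigned to the full-length form. The exact permutation p was 0.0286 in each subset, the smallest that 4 libraries against 4 can give. The CD4+ call was lost without WT animal 3 (adjusted p = 0.0517) or WT animal 6 (0.0511), and the CD8+ call without any single WT animal (0.0514 to 0.0607) and under quantile normalization (0.104), with the difference positive in each case.

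*Igf2r* rose in KO CD8+ cells and not detectably in KO CD4+ cells. It encodes the cation-independent mannose 6-phosphate receptor, which carries lysosomal enzymes from the Golgi and takes up IGF2 and other ligands at the cell surface. In CD8+ cells its normalized counts were 19843, 29798, 21953 and 18443 in KO and 17509.7, 16503, 14563 and 16547 in WT animals. All KO values were higher than all WT values, with the lowest KO value just above the highest WT value and 1 KO animal far above the rest. The difference was 0.45 (SE 0.139, 95% CI 0.13 to 0.76, adjusted p = 0.0425, limma; exact permutation p = 0.0286), a rise of 36.2% on the log scale. In CD4+ cells the counts were 8525, 9207, 12301 and 9045 in KO and 9391, 10417, 9906 and 9725 in WT animals. The groups overlapped, and the difference was -0.03 (95% CI -0.27 to 0.21, adjusted p = 0.872, limma). The CD8+ call did not hold without KO animal 3 (adjusted p = 0.0563) or without any single WT animal (0.0720 to 0.117), under quantile normalization (0.0614) or in a fit over all 20 libraries (0.176), all with positive differences.

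In CD4+ cells all KO libraries had less *Impact* than all WT libraries, without passing the threshold. IMPACT competes with GCN2 for its activator GCN1 and so restrains the response to amino acid shortage. Its normalized counts in CD4+ cells were 835, 709.9, 703 and 758 in KO and 961, 999.8, 839 and 1025 in WT animals. The lowest WT value was only just above the highest KO value. The difference was -0.35 (SE 0.111, 95% CI -0.59 to -0.10, adjusted p = 0.0522, limma; exact permutation p = 0.0286). In CD8+ cells the counts were 1128, 803, 719 and 711 in KO and 915, 955, 865 and 945 in WT animals. KO animal 1 had the highest value of the 8 and the other KO animals the lowest, so the groups overlapped, and the difference was -0.16 (95% CI -0.49 to 0.18, adjusted p = 0.457, limma). Without KO animal 1 the CD8+ difference was -0.31 (adjusted p = 0.0394). With DESeq2 the CD4+ difference was -0.33 (adjusted p = 0.0346), and after rescaling to a common 75th percentile it was -0.37 (0.0482).

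*Plagl1* showed the same arrangement in CD4+ cells, with all KO libraries below all WT libraries. It encodes a zinc finger transcription factor (ZAC1) that can hold back proliferation. The counts in CD4+ cells were 38.2, 119, 122 and 107 in KO and 299, 199.96, 158 and 171 in WT animals. No values overlapped, and KO animal 1, whose CD4+ library held CD8 transcripts, was well below the other KO animals. The difference was -1.18 (SE 0.385, 95% CI -2.03 to -0.33, adjusted p = 0.0557, limma; exact permutation p = 0.0286). Without KO animal 1 it was -0.79 (adjusted p = 0.0802), while *H13* without this animal still passed (0.27, adjusted p = 0.0335). The call of *Plagl1* depended on the setting, with an adjusted p of 0.0492 at a pseudocount of 10, 0.0197 with DESeq2, 0.0434 without KO animal 2 and 0.0438 without KO animal 3. In CD8+ cells the counts were 8.57, 1.03, 48.2 and 18.9 in KO and 21.8, 20.2, 37.7 and 38.9 in WT animals. These are from 1 to 43 reads in a KO library, the groups overlapped, and the difference was -1.32 (95% CI -3.28 to 0.64, adjusted p = 0.288, limma). Its size rested on single libraries and on the setting, at -0.48 without KO animal 2 and -2.01 without KO animal 3, -0.67 at a pseudocount of 10, -0.48 under quantile normalization, -0.62 with edgeR and -0.63 with DESeq2.

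*Zrsr1* overlapped between genotypes in both subsets. It is an intronless retrocopy related to the splicing factor U2AF1 and takes part in recognition of the 3' splice site. In CD4+ cells the counts were 611, 412, 468 and 669.9 in KO and 488, 423, 488 and 579.9 in WT animals (difference 0.11, 95% CI -0.29 to 0.51, adjusted p = 0.681, limma). The KO animals lay on both sides of the WT animals. In CD8+ cells they were 465, 329, 293 and 356 in KO and 392, 345, 449 and 455 in WT animals (difference -0.20, 95% CI -0.59 to 0.19, adjusted p = 0.421, limma).

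*Cdkn1c* was low and variable. It encodes p57Kip2, an inhibitor of cyclin-dependent kinases that holds hematopoietic stem cells in quiescence. Its counts in CD4+ cells were 26.8, 40.3, 45.8 and 48.3 in KO and 41.2, 15.6, 76.7 and 43.2 in WT animals, with the KO values inside the WT range (difference 0.03, 95% CI -1.04 to 1.10, adjusted p = 0.966, limma). In CD8+ cells they were 24.6, 21.6, 62.8 and 58.7 in KO and 36.6, 25.9, 19.8 and 13.9 in WT animals. Here 2 KO animals were above all WT animals and the other two were within their range (difference 0.70, 95% CI -0.39 to 1.80, adjusted p = 0.311, limma).

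Counted together, 1 of the 6 members rose (*H13*) and 0 fell in KO CD4+ cells, where 18.4% of all 12391 genes tested were called. In KO CD8+ cells 2 of 6 rose (*H13* and *Igf2r*) and 0 fell, where 25.2% of 12383 genes were called. The member counts were thus near what these shares give for 6 genes. The median difference of the members was 0.00 in CD4+ and 0.04 in CD8+ cells, beside -0.05 and -0.04 over all genes tested. For 3 members in CD4+ cells (*H13*, *Impact* and *Plagl1*) and 2 in CD8+ cells (*H13* and *Igf2r*) the genotypes did not overlap, as was so for 25.6% and 30.6% of all genes tested. A doubling is 1 on the log2 scale, the size that transcription from a second allele would give if both alleles were equally active. The 95% confidence interval lay below a doubling for 5 of the 6 members in each subset, and reached it for *Cdkn1c*. It lay above a halving (-1) for 4 of 6 members in CD4+ and 5 of 6 in CD8+ cells. The intervals of *Plagl1* reached -2.03 and -3.28, and that of *Cdkn1c* reached -1.04 in CD4+ cells. These counts are from the main test and moved with the setting. The CD8+ interval of *Plagl1* reached 1.005 under quantile normalization, and the CD4+ interval of *Cdkn1c* ended at 0.81 at a pseudocount of 10. Loss of a methylation mark need not raise the maternally expressed *Igf2r*, *Cdkn1c* and *H13*. An interval below a doubling is therefore not read as a result about their imprints. For *Impact*, *Plagl1* and *Zrsr1* it is not read so either, since the transcription of each allele was not measured.

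**Figure D3:**
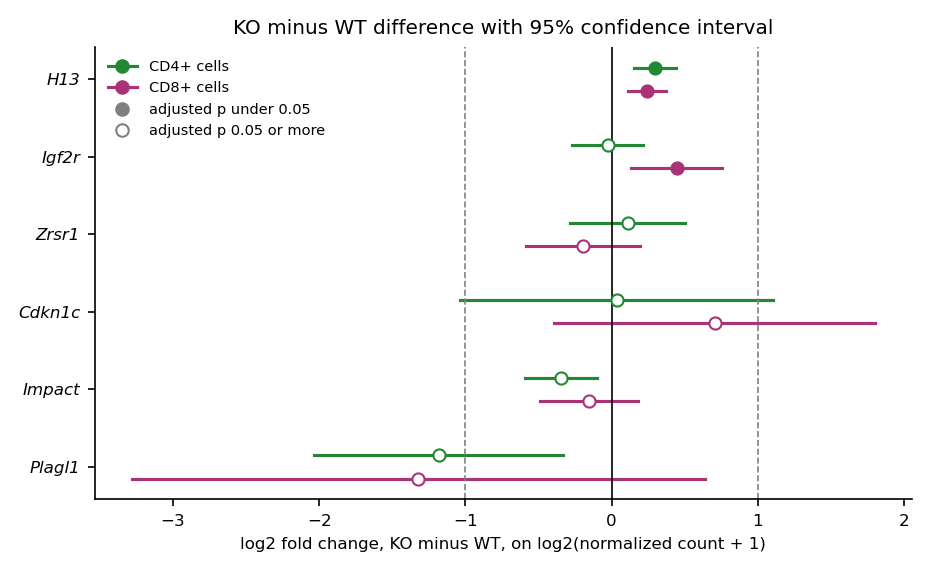
Difference between KO and WT cells for each member (x axis, log2 fold change on normalized count plus 1) with its 95% confidence interval, in CD4+ cells (green) and CD8+ cells (purple), where filled points have an adjusted p under 0.05 and dashed lines mark a halving and a doubling. *H13* is filled in both subsets and *Igf2r* in CD8+ cells, and the intervals of *Cdkn1c* reach 1.10 and 1.80.

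Whether the effect of the KO differed between subsets was tested as a genotype by subset interaction over 16 libraries. By limma 0 of the 6 members passed, with 2 of 12446 genes (0.0161%) passing and 793 at an unadjusted p under 0.05. With edgeR 1 gene passed and with DESeq2 21, none of them a member. *Igf2r* had the largest of the members' interactions relative to its error, 0.47 higher in CD8+ than in CD4+ cells (95% CI 0.08 to 0.87, unadjusted p = 0.0218, adjusted p = 0.658). The rise of *Igf2r* was thus not shown to be restricted to CD8+ cells. When the animal was entered as a block, which pairs the subsets of 1 animal, 173 genes passed and 0 members did.

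The WT subsets were compared in the same way. In WT cells, *Igf2r* was at 9391 to 10417 in CD4+ and 14563 to 17509.7 in CD8+ libraries, and *Plagl1* at 158 to 299 in CD4+ and 20.2 to 38.9 in CD8+ libraries. Neither gene overlapped between the subsets. *Igf2r* was lower in CD4+ cells by 39.3% (difference -0.72, SE 0.057, 95% CI -0.84 to -0.60, adjusted p = 3.6e-07, limma) and *Plagl1* was 6.86-fold higher there (difference 2.78, SE 0.288, 95% CI 2.16 to 3.40, adjusted p = 4.6e-06, limma). These 2 of 6 members stand beside 44.5% of 12559 genes called in this comparison, and both held in every alternative tried. *H13* did not overlap between the subsets either (9068 ± 160.2 and 8695 ± 104, SD, n = 4 each) but its difference of 0.06 did not pass (adjusted p = 0.227, limma), and 41.8% of all genes did not overlap. *Zrsr1* was 0.27 higher in CD4+ cells (95% CI 0.00 to 0.54, adjusted p = 0.0965, limma), and with the animal as a block, where 6134 genes passed, its adjusted p was 0.0377. Without the CD4+ library of WT animal 3, *Zrsr1* (0.34, adjusted p = 0.0454) and *Cdkn1c* (1.15, adjusted p = 0.0384) passed as well. *Impact* differed by 0.05 (95% CI -0.12 to 0.22, adjusted p = 0.630, limma).

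The KO DP cells carried CD8 markers at the level of KO CD8+ cells together with *Cd4*, and were compared with both single-positive KO subsets. Their counts for *Igf2r* were 19722, 26247, 9318 and 13982 in animals 1 to 4, which spanned the CD4+ and the CD8+ range, with animal 3 lowest. *Plagl1* was at 19.4, 19.6, 0 and 16.3, below all KO CD4+ libraries, with 3 of the 4 values within the range of KO CD8+ libraries (1.03 to 48.2) and animal 3 below it. *Zrsr1* was at 478, 323, 339 and 318, and *Cdkn1c* at 11.9, 7.85, 11.2 and 38.4, so that 1 animal stood above the other three for each. *H13* was at 11921, 10112, 9739.7 and 10200.5, and *Impact* at 856, 671, 526 and 715, where animal 3 was lowest for both.

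Against KO CD8+ cells, 0 of the 6 members passed by limma, and 1 of 12153 genes (0.00823%) did, with 237 genes at an unadjusted p under 0.05, 1 gene called by edgeR and 3 by DESeq2, of which 0 were members. No member was free of overlap, beside 2.7% of all genes. The differences ranged from -1.34 for *Cdkn1c* (95% CI -2.88 to 0.21) to 0.03 for *H13* (95% CI -0.23 to 0.28). Without the DP library of animal 3, again 0 members passed, and the difference of *Plagl1* went from -0.35 to 0.72. Against KO CD4+ cells, 0 of 6 members passed by limma, where 237 of 12175 genes (1.95%) did and 1814 had an unadjusted p under 0.05, and edgeR called 192 genes with 0 members and DESeq2 728 with 1. *Plagl1* was the only member free of overlap (difference -3.27, 95% CI -5.48 to -1.05, adjusted p = 0.146, limma), beside 11.2% of all genes. Its adjusted p was 0.0123 with DESeq2, 0.0226 in the fit over 20 libraries and 0.0450 under quantile normalization. Without the DP library of animal 3, where it was at 0, the difference was -2.20 (adjusted p = 0.0643). The difference of *Igf2r* from KO CD4+ cells was 0.74 (95% CI 0.11 to 1.37, adjusted p = 0.260, limma) and, without animal 3, 1.00 (adjusted p = 0.0490). The difference of *Zrsr1* was -0.56 (95% CI -1.08 to -0.04, adjusted p = 0.302, limma). With the animal as a block 860 genes passed and 0 members did.

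For *Igf2r* the means ran from KO CD8+ (22509 ± 5069, SD, n = 4) through KO DP (17317 ± 7317) and WT CD8+ (16281 ± 1236) to WT CD4+ (9859.9 ± 428) and KO CD4+ cells (9769 ± 1713). Of the neighbours in this order, only WT CD8+ and WT CD4+ cells did not overlap. For *Plagl1* the order was WT CD4+ (207 ± 63.6), KO CD4+ (96.5 ± 39.4), WT CD8+ (29.7 ± 10.1), KO CD8+ (19.2 ± 20.7) and KO DP (13.8 ± 9.35), in which WT and KO CD4+ cells were free of overlap and KO CD4+ and WT CD8+ cells touched (38.2 against 38.9). For *H13* the order was KO CD4+ (11141 ± 562), KO DP (10493 ± 973), KO CD8+ (10273 ± 506), WT CD4+ (9068 ± 160.2) and WT CD8+ (8695 ± 104), with the 3 KO groups overlapping.

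The partner transcripts at the members' loci were read in the same fits. *Mcts2*, the retrogene inside *H13*, encodes a protein related to the translation factor MCTS1. Its counts were 37.3, 51.1, 41.1 and 54.9 in KO and 65.7, 57.8, 65.1 and 60.7 in WT CD4+ cells, and 83.5, 59.7, 41.5 and 19.9 in KO and 68.9, 92.1, 90.8 and 100.1 in WT CD8+ cells. All KO CD4+ values were below all WT values and the CD8+ values overlapped. The differences did not pass (-0.44, 95% CI -1.08 to 0.19, adjusted p = 0.288 and -0.93, 95% CI -1.87 to 0.01, adjusted p = 0.130, limma), and their sign was opposite to that of *H13*.

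*Airn* was at 14.3, 48.1, 35.3 and 35.1 in KO and 71.3, 29.4, 60.2 and 65.2 in WT CD4+ cells, and at 229, 259, 58.3 and 106 in KO and 104, 137, 111 and 138 in WT CD8+ cells. *Airn* was low beside *Igf2r* in all groups, also per kb of exon (56.1 against 1823 in WT CD8+ cells). The libraries were poly(A)-selected and counted on exons, so *Airn* RNA without a poly(A) tail or outside exons was not covered. Both genes were higher in WT CD8+ than in WT CD4+ cells without overlap (*Airn* difference -1.17, 95% CI -1.77 to -0.57, adjusted p = 0.00395, limma). *Airn* did not differ detectably between genotypes, with -0.79 for CD4+ cells (adjusted p = 0.236, limma) and 0.19 for CD8+ cells (adjusted p = 0.777, limma).

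*Kcnq1ot1*, which silences *Cdkn1c* on the paternal chromosome in many tissues, was at 417, 1239, 350.4 and 373 in KO and 2472, 952, 744 and 1497 in WT CD4+ cells. In CD8+ cells it was at 1101, 846, 302 and 792 in KO and 359, 763, 280.4 and 385 in WT animals. The genotypes overlapped in both subsets, with KO values mostly below WT values in CD4+ and mostly above them in CD8+ cells. The differences were -1.32 (95% CI -2.30 to -0.33, adjusted p = 0.0618) and 0.73 (95% CI -0.21 to 1.66, adjusted p = 0.223), and the interaction was 2.04 (unadjusted p = 0.00801, adjusted p = 0.541, limma). Between the WT subsets, *Kcnq1ot1* was 1.61 higher in CD4+ cells (95% CI 0.88 to 2.35, adjusted p = 0.00167, limma), with overlapping values. *Malat1* and *Neat1*, 2 nuclear noncoding RNAs at other loci, were lower in KO CD4+ (-2.20 and -1.34, adjusted p = 0.000594 and 0.00938, limma) and in KO CD8+ cells (-1.15 and -2.03, adjusted p = 0.0271 and 0.00107, limma). For *Malat1* the genotypes overlapped in CD8+ cells, with KO animal 1 at 22537 beside 19753 to 31241 in WT animals (exact permutation p = 0.0857). *Commd1*, which encodes a COMM domain protein of endosomal sorting, was the most level of the partner transcripts between genotypes, with KO CD4+ libraries at 1437 ± 224 (SD, n = 4) beside 1449.9 ± 135 for WT (difference -0.02, 95% CI -0.30 to 0.25, adjusted p = 0.913) and KO CD8+ libraries at 1642 ± 255 beside 1617 ± 100.3 (0.01, 95% CI -0.25 to 0.27, adjusted p = 0.956, limma).

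**Figure D4:**
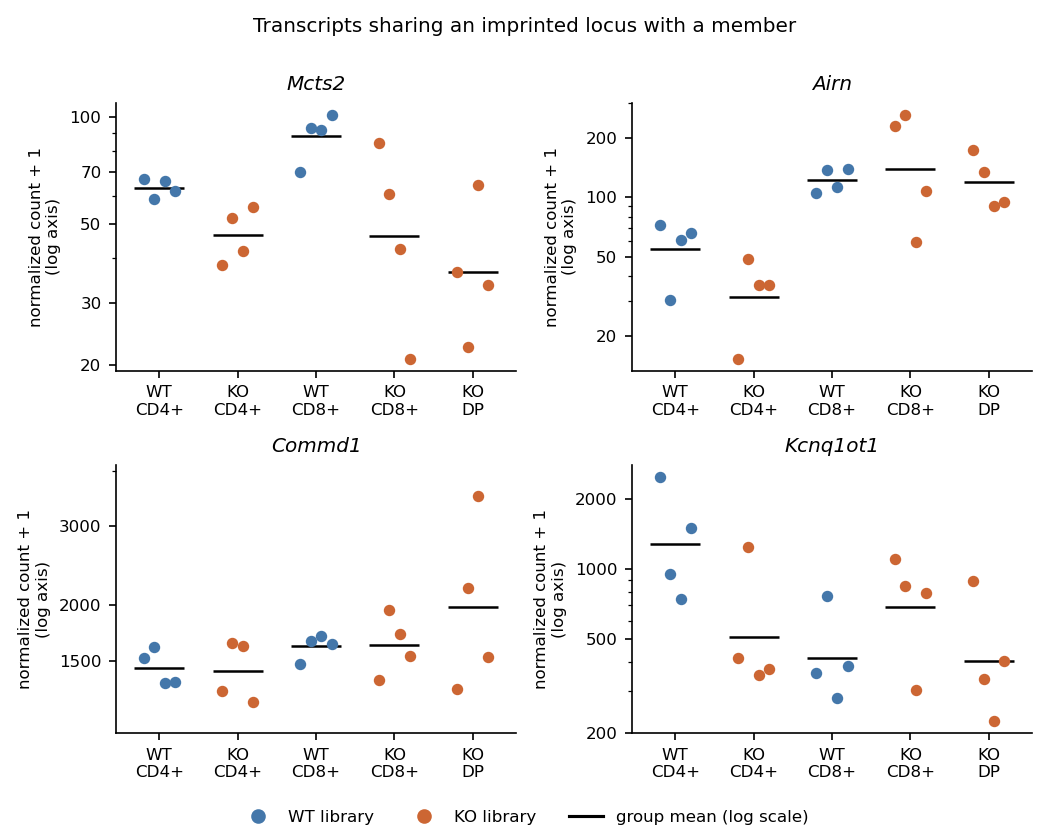
Normalized count plus 1 (log axis) of 4 transcripts that share an imprinted locus with a member, by library, with blue points for WT, orange points for KO and black bars for the mean of each group on the log scale. *Mcts2* is lower in all KO than in all WT CD4+ libraries, and *Commd1* reaches 3511 in the DP library of KO animal 3.

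Among 59 other imprinted genes, 50 were analysed, of which 23 had a mean under 10 in every group and 10 had a mean of at least 1000 in every group. Of 26 tested in CD4+ cells, 0 rose and 2 fell, and of 24 tested in CD8+ cells 1 rose and 1 fell, beside 18.4% and 25.2% of all genes called in either direction. *Gatm*, which encodes the first enzyme of creatine synthesis and is imprinted in placenta, fell in both subsets, from 302.7 ± 94.8 in WT to 50.9 ± 25.4 in KO CD4+ cells (SD, n = 4; difference -2.63, SE 0.402, 95% CI -3.52 to -1.73, adjusted p = 0.00462, limma) and from 233 ± 69.2 to 69.6 ± 38.7 in CD8+ cells (-1.81, SE 0.371, adjusted p = 0.00885, limma). *Sfmbt2*, a Polycomb-related gene that is paternally expressed, fell in CD4+ cells from 304 ± 56.6 to 137 ± 42.8 (-1.20, SE 0.279, adjusted p = 0.0188, limma). *Nap1l4*, a histone chaperone gene, rose in CD8+ cells from 8500.2 ± 278 to 9910.1 ± 500.4 (0.22, SE 0.061, adjusted p = 0.0278, limma). Whether *Nap1l4* and the other listed genes are imprinted in T cells was not examined. The median difference was -0.05 in CD4+ and -0.01 in CD8+ cells. For the paternally expressed genes alone it was -0.79 over 11 genes in CD4+ and -0.59 over 10 genes in CD8+ cells, of which 1 and 0 passed the test, and for the maternally expressed genes it was -0.02 over 15 and 0.02 over 14 genes. The lists include the partner transcripts *Airn*, *Kcnq1ot1* and *Mcts2* (paternal) and *Commd1* (maternal) given above. In CD4+ cells the medians of these lists are the values of *Airn* and *Commd1* themselves. Some paternally expressed genes had low counts in CD4+ cells, such as *Mest* (means of 9.95 in WT and 16.8 in KO) and *Rasgrf1* (29.4 and 7.66).

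**Figure D5:**
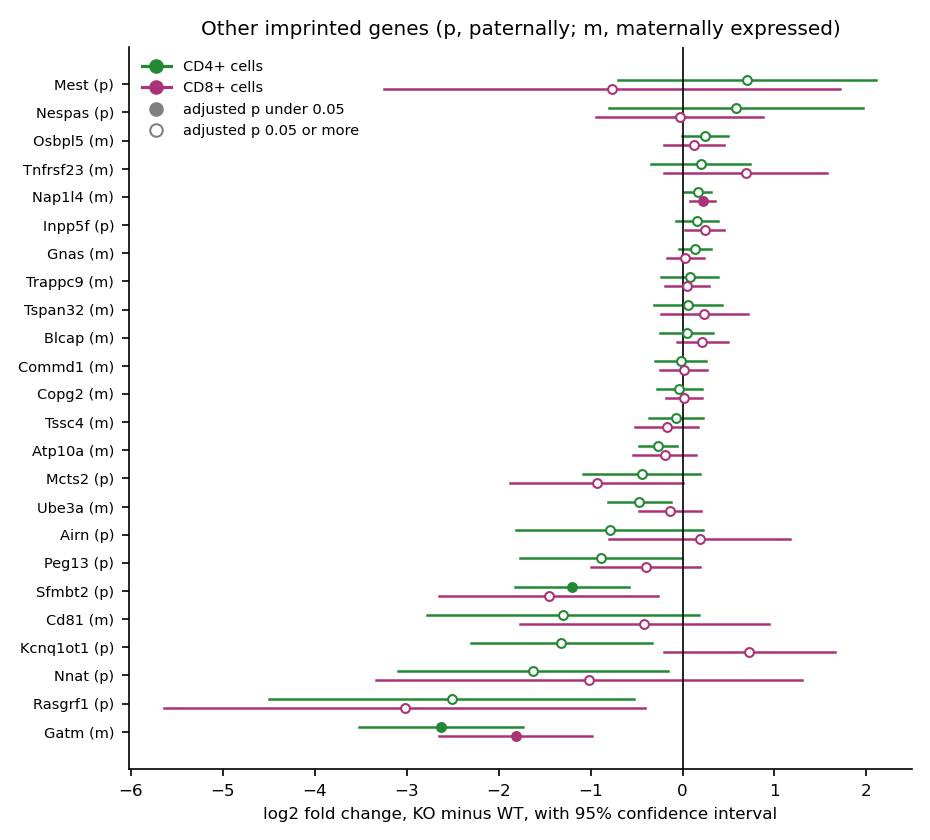
Difference between KO and WT cells (x axis, log2 fold change) with its 95% confidence interval for the 24 other imprinted genes tested in both subsets, in CD4+ cells (green) and CD8+ cells (purple), where filled points have an adjusted p under 0.05. *Gatm* is filled in both subsets, *Sfmbt2* in CD4+ cells and *Nap1l4* in CD8+ cells.

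Of the factors that maintain imprints, 8 were tested, and 0 rose and 2 fell in each subset, beside 18.4% of all genes called in CD4+ and 25.2% in CD8+ cells, so the counts were near these shares. *Zfp445*, which encodes a zinc finger protein of imprint maintenance, fell from 4521 ± 489.6 to 2979 ± 182 in CD4+ cells (SD, n = 4; difference -0.60, SE 0.090, adjusted p = 0.00436, limma) and from 4706 ± 188 to 3203 ± 363 in CD8+ cells (-0.56, SE 0.086, adjusted p = 0.00323, limma). *Hells*, which encodes a chromatin remodeler needed for DNA methylation, fell in CD4+ cells (-0.94, SE 0.264, adjusted p = 0.0361, limma). *Setdb1*, an H3K9 methyltransferase gene, fell in CD8+ cells (-0.27, SE 0.067, adjusted p = 0.0179, limma). The median over the list was -0.29 in CD4+ and -0.25 in CD8+ cells, beside -0.05 and -0.04 over all genes.

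Genes that work with the members were counted in the same fits, beside the same 18.4% and 25.2% of all genes called, and with 2 to 7 genes in a list nothing particular to a list is read from its count. Of 7 tested genes of the GCN2 pathway around IMPACT, 0 rose and 2 fell in each subset. *Ppp1r15a*, the stress-induced regulatory subunit of the phosphatase for eIF2alpha, fell in CD4+ (-2.10, SE 0.244, adjusted p = 0.00165, limma) and CD8+ cells (-2.17, SE 0.264, adjusted p = 0.00143, limma), and *Atf4*, the transcription factor translated under this stress, fell by 0.43 (adjusted p = 0.00895) and 0.57 (adjusted p = 0.00242). Of 7 genes of mannose 6-phosphate sorting, which serve the same route as *Igf2r*, 0 rose in either subset, *Gga3* (a clathrin adaptor) fell in CD4+ (-0.69, adjusted p = 0.0188) and CD8+ cells (-0.82, adjusted p = 0.00296), and *Gnptg* (a subunit of the enzyme that makes the tag) fell in CD8+ cells (-0.37, adjusted p = 0.0329, limma). Of the 3 relatives of *H13* in the signal peptide peptidase family, 0 passed in CD4+ cells (median 0.24), and *Sppl2a* (0.41, SE 0.066, adjusted p = 0.00384) and *Sppl3* (0.33, SE 0.095, adjusted p = 0.0302, limma) rose in CD8+ cells. Of 6 other CDK inhibitors, 1 rose in each subset and 0 fell, namely *Cdkn2d* (p19Ink4d), by 0.51 (SE 0.071, adjusted p = 0.00337) and 0.60 (SE 0.094, adjusted p = 0.00335, limma). By limma 0 of 7 Sm protein genes, 0 of 4 factors of the 3' splice site and 0 of 2 PLAG family genes passed in either subset. Across all genes 4508 had an unadjusted p under 0.05 in CD4+ and 4897 in CD8+ cells, and edgeR called 2265 and 3055 genes and DESeq2 3100 and 3833.

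The genes whose log2 levels followed each member most closely over the 20 libraries, among 10709 genes with a mean of at least 50, are given as a description, since the libraries share animals, subsets and genotypes. They were *Tec* (Pearson r = 0.919) and *Mef2a* (0.912) for *Igf2r*, *Phc2* (0.944) and *Pgm2* (0.937) for *H13*, *2310035C23Rik* (0.951) and *Macf1* (0.932) for *Impact*, *Faah* (0.896) and *Gpr132* (0.871) for *Zrsr1*, and *Gm4841* (0.937) and *Ffar2* (0.927) for *Plagl1*. *Cdkn1c* was below the level set for this search. The DP library of KO animal 3, where *Plagl1* was at 0, was among the 20, and no search was made without it.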

How the data were processed

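RNA-Seq values were taken from the table deposited for 20 libraries (4 in each of 5 groups). Per the methods and the labels, the authors prepared poly(A)-selected strand-specific libraries, aligned them to mm10 with STAR (2.7.2b in the submitters' processing notes, another version in the methods), counted read pairs on exons of UCSC genes by strand, and normalized with DESeq2. The deposited signal is the count divided by 1 size factor per library. These factors equaled DESeq2 size factors (largest relative deviation 3.55e-15) and gave back whole reads for 100% of values (tolerance 1e-06). Because the values are normalized, limma was the main test, with count tests as alternatives. Reads per library bound the precision of counts, most of all for *Cdkn1c* and *Plagl1*, and at 4 libraries per group the spread between animals was a further limit.

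Comparisons used limma 3.58.1 in R 4.3.3 (trended eBayes) of log2(normalized count + 1), restricted to genes whose mean reached 10 over the libraries compared, 2-sided, with Benjamini-Hochberg adjustment over all genes tested and a threshold of 0.05. Confidence intervals are limma's 95% intervals. Alternatives were a pseudocount of 10, no filter, quantile normalization, a common 75th percentile, the quasi-likelihood test of edgeR 4.0.16 or DESeq2 1.42.0 run on whole reads, a joint fit of 20 libraries, a block for the animal, and omission of each library in turn. Single genes also had 2-sided exact permutation tests. Replicates are animals by the numbers in the sample titles, and no pair of 30 within groups was a duplicate (smallest chi-square per degree of freedom 11.0). Equal numbers paired the libraries within a genotype (r of deviations from group means 0.412 to 0.498, 0.271 to 0.457 and 0.338 to 0.538 within KO, and 0.120 to 0.196 within WT).

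The members and all lists were chosen with earlier results of these data known. The members and the partners at their loci are always named. List genes are named with a mean of at least 50, an adjusted p under 0.05 and no overlap between groups, at most 4 per list and comparison. *Malat1* and *Neat1* fall outside this rule. For likeness, 2 genes per member were taken. Positions, exon lengths (curated transcripts) and start windows are from RefSeq, GRCm38.p6. The limma fit of KO against WT CD4+ cells was tested on simulated counts with known doublings and halvings. Smaller changes and the other calculations were not tested in this way.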

Additional observations from a re-analysis of the deposited data

Results flagged for a closer look

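In 30 groups of 4 libraries (6 members in 5 groups), a single library lay far from the other 3 in 3 cases, where chance gives about 1.5. All 3 were KO DP libraries. *Zrsr1* was at 478 in the DP library of KO animal 1, and the gap to the nearest library was 0.871 of the group's range. *Cdkn1c* was at 38.4 in the DP library of KO animal 4 (gap 0.868 of the range). *Plagl1* was at 0 in the DP library of KO animal 3 (gap 0.831 of the range), the library with 11783 genes with reads.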

How the results depend on the processing

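Fewer genes passed between KO and WT in the joint fit of 20 libraries (1304 in CD4+ and 2017 in CD8+ cells) and with the replicate block, which used numbers 2 and 3 alone (26 and 89). Equal numbers did not pair KO with WT libraries (r 0.0696 to 0.0846 in CD4+ and -0.0024 to 0.0990 in CD8+ cells). In CD4+ cells 2 members passed at a pseudocount of 10 or a common 75th percentile, 3 with DESeq2 and 0 with the block. In CD8+ cells 0 passed under quantile normalization, 1 in the joint fit and 0 with the block. The interaction gave 7 genes with no filter, 1 with edgeR, 21 with DESeq2, 1 in the joint fit and 173 with the block. The joint fit gave 1610 genes between WT subsets. DP against CD8+ cells gave 3 genes with DESeq2. DP against CD4+ cells gave 728 with DESeq2, 1459 in the joint fit and 860 with the block, and 1, 1 and 2 members under quantile normalization, DESeq2 and the joint fit. The block, valid within a genotype, changed no other member's call there than that of *Zrsr1* between WT subsets.

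Directions reversed only for differences short of the threshold. In CD4+ cells these were *Igf2r* with DESeq2 (9.7e-05) and the block (0.11), *Zrsr1* with the block (-0.048), and *Cdkn1c* at a pseudocount of 10 (-0.0019), with edgeR (-0.12) and with DESeq2 (-0.12). The interaction of *Plagl1* turned to 0.42, 0.43, 0.46 and 0.47 at a pseudocount of 10, under quantile normalization, with edgeR and with DESeq2, and its difference between DP and CD8+ cells to 0.32 under quantile normalization.

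With each library left out, 628 to 2963 genes and 0 to 2 members passed in CD4+ cells, the fewest genes without WT animal 6, and 1633 to 4092 genes and 0 to 3 members in CD8+ cells, the fewest also without WT animal 6. The interaction gave 0 to 5 genes, the WT subsets 2 to 4 members, and DP against CD4+ cells 84 to 279 genes and 0 to 1 members. Differences ranged from -0.14 to 0.033 for *Igf2r*, -0.0034 to 0.23 for *Zrsr1* and -0.38 to 0.36 for *Cdkn1c* in CD4+ cells, from -0.83 to 0.70 for the interaction of *Plagl1*, and between DP and CD8+ cells from -0.12 to 0.14 for *Zrsr1*, -0.035 to 0.062 for *H13* and -1.19 to 0.72 for *Plagl1*. The cause of these shifts was not tested. Counts of *Cdkn1c* and *Plagl1* rest on few reads, which limits both. Allele-specific transcription, *Snrpn* and DNA methylation were not analysed here.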
